A study of Mus musculus with 16 samples.

Results

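The receptors described here are 9 G protein-coupled receptors of the gut that respond to fatty acids and other lipids, to bile acids, or to amino acids and calcium. The members are *Ffar1*, *Ffar2*, *Ffar3*, *Ffar4*, *Gpr119*, *Gpbar1*, *Casr*, *Gprc6a* and *Lpar5*. They were chosen by name, and each was matched to the transcripts that carry that name in the table of ileal RNA levels. Of the 9, 7 had transcripts among the 23299 genes of the table, 12 transcripts in all; *Casr* and *Gprc6a* were not analysed here. No member passed the thresholds of the study (2-fold, and 0.01 for the adjusted p) in any comparison of diet or genotype, tested with limma on 13 libraries. The study itself used DESeq2, and its own list of differentially expressed genes was not compared. *Ffar2*, *Ffar4* and *Lpar5* were on average higher in ND-fed *Tas1r3*+/+ mice than in WD-fed *Tas1r3*+/+ or ND-fed *Tas1r3*-/- mice, by differences that did not pass the correction over all genes. *Gpr119* was at the limit of detection.

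RNA came from whole terminal ileum of C57BL/6 *Tas1r3*+/+ mice and of mice with a germline deletion of *Tas1r3* (*Tas1r3*-/-), backcrossed to that strain. *Tas1r3* encodes the subunit shared by the sweet and umami taste receptors. Each genotype received a normal diet with plain water (WT-ND and KO-ND) or a Western diet for 10 weeks (WT-WD and KO-WD), which joined high-fat pellets (60%) to a 30% sugar drink. The labels give 4 samples in each group, 2 males and 2 females. As explained in the processing section, 13 libraries were kept, namely 4 in WT-ND, 2 in KO-ND, both male, 4 in WT-WD and 3 in KO-WD. Genotype on the ND, diet in *Tas1r3*-/- mice and the interaction are therefore partly tied to sex, and genotype on the WD less so. P-values set a difference against the spread between these libraries.

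Free fatty acid receptors sense fatty acids by chain length. *Ffar2* and *Ffar3* respond to the short-chain acids that bacteria make from fibre, and *Ffar1* and *Ffar4* to medium- and long-chain acids. *Gpr119* binds lipid amides and monoacylglycerols, *Gpbar1* (TGR5) binds bile acids, and *Lpar5* binds lysophosphatidic acid and has been linked to peptone sensing. In the gut these receptors are best known from enteroendocrine cells, where several of them promote the release of GLP-1, PYY or CCK, while *Ffar2* is also found on leukocytes, *Gpbar1* on macrophages and enteric neurons, and *Lpar5* in epithelium.

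*Ffar2*, *Ffar3* and *Ffar1* lie in a cluster on the minus strand of chromosome 7 (GRCm38), at 30818348 to 30823775, 30854330 to 30856178 and 30857390 to 30861564, so that only 1211 bases separate *Ffar3* from *Ffar1*. *Ffar4* lies on chromosome 19 (plus strand, 38097071 to 38114263), *Gpbar1* on chromosome 1 (plus, 74278550 to 74279624), *Lpar5* on chromosome 6 (plus, 125067920 to 125082472) and *Gpr119* on chromosome X (minus, 48667979 to 48674478). None of these 7 overlaps another annotated gene. All 12 transcripts are annotated as protein coding.

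Of the members tested, *Ffar2*, *Ffar4* and *Lpar5* had an unadjusted p under 0.05 in limma for diet in *Tas1r3*+/+ mice. So did 15.5% of all genes tested, and none of the 3 members passed the correction. The sequences just upstream of these 3 are shown, with 2 start sites for *Ffar2*, whose main transcripts begin at different places. They are 250 bases ending at the base before the RefSeq start site (RefSeq, GRCm38.p6), written 5′ to 3′ on the gene's strand. Capitals mark 3 motifs, found on either strand. The GC box was searched as GGGCGG. The CAAAG core was searched by the letters of its name, and the TATA box was searched as TATAAA. None of the matches overlap. RefSeq holds other starts as well, which are not shown. For *Ffar2* they lie at 30821648 and at 30821192, the latter inside the downstream window, and for *Lpar5* at 125071335.
Ffar2 upstream start (chr7:30823776-30824025, minus strand): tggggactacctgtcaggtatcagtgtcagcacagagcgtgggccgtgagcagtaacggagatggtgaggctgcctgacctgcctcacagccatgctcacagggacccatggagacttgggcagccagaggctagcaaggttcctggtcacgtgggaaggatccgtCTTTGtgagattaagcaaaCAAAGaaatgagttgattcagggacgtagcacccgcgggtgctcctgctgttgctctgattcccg
Ffar2 downstream start (chr7:30821140-30821389, minus strand): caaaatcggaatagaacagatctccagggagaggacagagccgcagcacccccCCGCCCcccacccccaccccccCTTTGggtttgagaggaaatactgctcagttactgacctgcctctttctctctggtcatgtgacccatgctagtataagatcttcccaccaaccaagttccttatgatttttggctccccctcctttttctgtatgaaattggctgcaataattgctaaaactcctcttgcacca
Ffar4 start (chr19:38096829-38097078, plus strand): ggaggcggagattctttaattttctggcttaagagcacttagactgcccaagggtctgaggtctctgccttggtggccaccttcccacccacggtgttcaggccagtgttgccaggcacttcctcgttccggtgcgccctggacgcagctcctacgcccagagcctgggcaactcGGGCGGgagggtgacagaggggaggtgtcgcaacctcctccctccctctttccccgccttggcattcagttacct
Lpar5 start (chr6:125067670-125067919, plus strand): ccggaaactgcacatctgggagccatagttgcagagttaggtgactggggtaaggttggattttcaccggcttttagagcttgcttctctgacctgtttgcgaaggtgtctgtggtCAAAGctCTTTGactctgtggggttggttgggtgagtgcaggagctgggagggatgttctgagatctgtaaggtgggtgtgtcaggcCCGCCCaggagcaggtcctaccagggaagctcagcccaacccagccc

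None of the 4 windows holds a TATA box, which 12.4% of 32817 mouse promoter windows of the same length hold. *Lpar5*, *Ffar4* and the downstream start of *Ffar2* have 1 GC box each, against 32.7% of all windows with at least 1. The CAAAG core is common (48.6% of all windows). It occurs at 2 places upstream of *Lpar5*, 2 bases apart and facing each other, at 2 places before the upstream start of *Ffar2*, at 1 before the downstream start and not upstream of *Ffar4*. GC content was 61.2% for *Ffar4*, 56.8% and 50.4% for the *Ffar2* starts and 56% for *Lpar5*, beside a median of 52.4% over all windows.

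Levels are given as scaled RPKM, the deposited RPKM of a gene summed over its transcripts and divided by a scaling factor of the library (0.693 to 1.41). RPKM divides reads by transcript length and by library total, so levels of different members can be compared. On a transcript of 1 kb, 1 read was worth an RPKM of 0.0692 to 0.139. *Tas1r3* itself was 1.56 to 2.09 scaled RPKM in WT-ND and 4.33 to 6.65 in WT-WD, and at most 0.00532 in the 5 *Tas1r3*-/- libraries, as the labels say. The tissue label was checked with marker genes. All 8 enterocyte markers were present, and their summed level ranged from 1135 to 16475 scaled RPKM, lower in both KO-ND libraries (2627 and 5314) than in any WT-ND library (7307 to 11667). The male 1 library of KO-WD had the lowest enterocyte sum and the highest smooth muscle sum (5357, from 6 of 6 markers, against 1023 to 4024 in the others). All 16 enteroendocrine markers were present too, at a sum of 56.6 to 253. In bulk tissue, fewer cells of a type and less RNA per cell cannot be told apart.

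The 7 receptors were low to moderate in level. *Lpar5* had the highest mean over the 13 libraries (7.79 scaled RPKM, above 62.5% of the genes of the table), followed by *Ffar4* (6.41), *Ffar2* (3.74), *Ffar3* (1.09), *Gpbar1* (1.04), *Ffar1* (0.378) and *Gpr119* (0.129, above 4.46% of genes). *Lpar5* was above *Ffar4* in 11 of 13 libraries, *Ffar4* above *Ffar2* in 12 and *Ffar2* above *Ffar3* in all 13. *Ffar3* and *Gpbar1* were not separated, since *Ffar3* was the higher in 7 of 13. *Gpbar1* was above *Ffar1* in 10 libraries, and *Ffar1* above *Gpr119* in 12.

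The reads behind these levels were estimated from the worth of 1 read. A member counted as near the detection limit where its median was under 10 reads and at the limit where it was under 3. *Gpr119* was at the limit, with a median of 2 reads, a range of 0 to 12 and 43.6 reads over all libraries. *Gpbar1* was on the border of the range called near, with a median of 10 reads and a range of 2 to 24; 6 of its 13 libraries were under 10 reads. *Ffar1* (median 15 reads, 6 to 38) and *Ffar3* (median 19, 9 to 27) were low but above it. *Ffar2* (median 74), *Ffar4* (median 88) and *Lpar5* (median 111) had at least 21 reads in every library. A gene was tested where its RPKM reached 1 in at least 2 libraries. *Ffar2*, *Ffar3*, *Ffar4*, *Gpbar1* and *Lpar5* passed, whereas *Ffar1* and *Gpr119* reached 1 in none of the libraries as deposited.

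**Figure D1:**
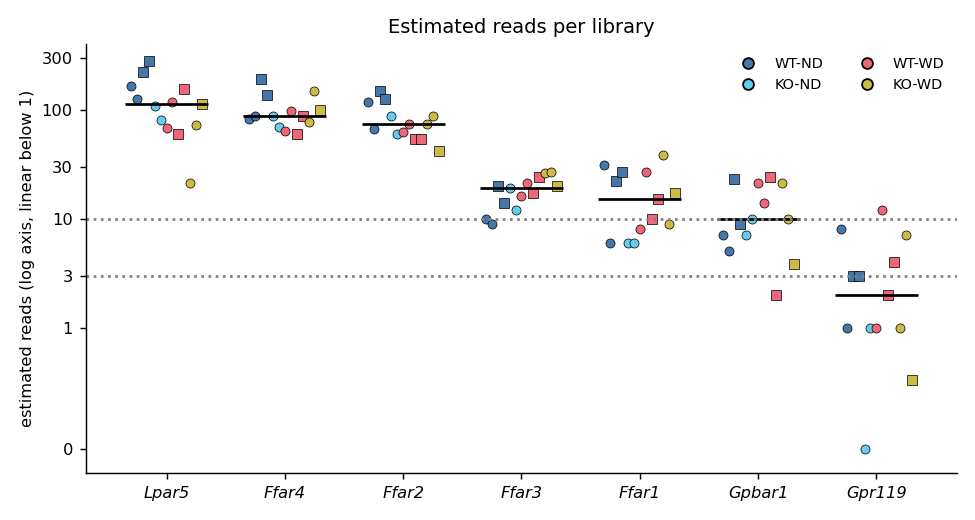
Estimated reads of 7 receptors (x axis) in each of 13 libraries (y axis, log scale, linear below 1), with circles for males, squares for females and a line at the median; dotted lines stand at 3 and 10 reads. The median of *Gpr119* lies at 2 reads and that of *Gpbar1* at 10, while *Lpar5*, *Ffar4* and *Ffar2* lie at 74 to 111.

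*Ffar2*, the short-chain fatty acid receptor shared by enteroendocrine cells and leukocytes, was lower in WD-fed than in ND-fed *Tas1r3*+/+ mice in every library. It measured 5.51, 4.41, 5.73 and 4.57 scaled RPKM in WT-ND and 3.065, 3.14, 2.56 and 3.36 in WT-WD (in the order males 1 and 2, females 1 and 2). The lowest ND library was above the highest WD library. The means were 5.06 ± 0.662 (SD, n = 4) and 3.03 ± 0.340 (n = 4), a log2 difference of -0.65 (SE 0.21, 95% interval -1.11 to -0.20), with an adjusted p of 0.178 in limma and an exact two-sided permutation p of 0.0286, the smallest that 4 against 4 libraries allow.

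In *Tas1r3*-/- mice, *Ffar2* was 3.69 and 2.96 scaled RPKM in KO-ND and 4.14, 3.47 and 2.01 in KO-WD (males 1 and 2, female). These groups overlapped, with a log2 difference of -0.085 (95% interval -0.67 to 0.50, adjusted p = 0.999). Both KO-ND libraries lay below the lowest WT-ND library, at a log2 difference of -0.54 (SE 0.26, adjusted p = 0.895, exact permutation p = 0.0667, the smallest that 2 against 4 allow). On the WD the genotypes overlapped (log2 difference 0.03, 95% interval -0.46 to 0.52).

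The level of *Ffar2* is the sum of 4 transcripts, of which the transcript from the upstream start (2301 bases) made up 42.7% of the mean RPKM and that from the downstream start (1913 bases) 45.1%. The downstream transcript was 0.764, 1.38, 4.17 and 2.98 scaled RPKM in WT-ND and 0.799, 0.0778, 0.988 and 0.00105 in WT-WD. The upstream transcript was 3.97, 1.78, 1.15 and 1.08 in WT-ND and 1.68, 1.90, 1.57 and 2.05 in WT-WD. The larger share of the WT-ND sums was thus from the downstream start in the females and from the upstream start in male 1. In *Tas1r3*-/- mice the downstream transcript was 1.81 to 2.34 in KO-ND and 0.403 to 3.28 in KO-WD. The 2 transcripts overlap on the genome, and their reads were not whole numbers, so the split between them is uncertain. These values were looked at after the gene result was known and were not tested.

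**Figure D2:**
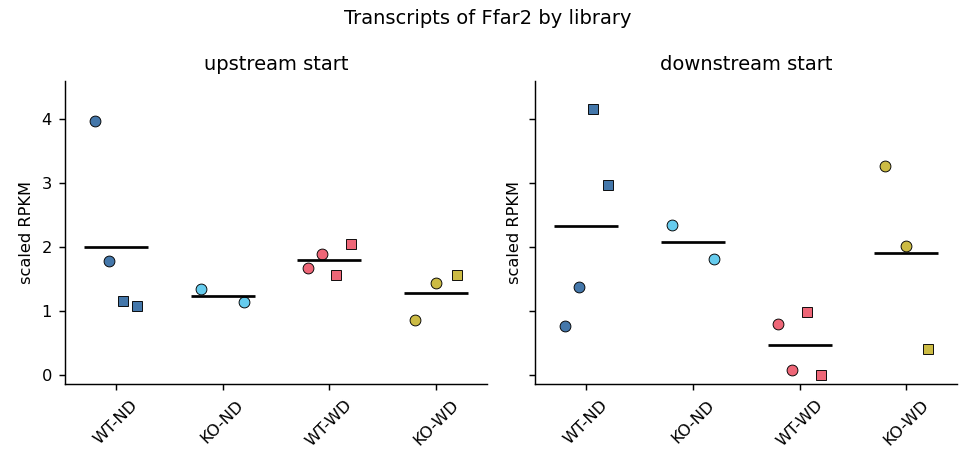
Scaled RPKM (y axis) of the *Ffar2* transcripts from the upstream and the downstream start in each library of the 4 groups (x axis), circles for males, squares for females, lines for group means. The downstream transcript lies between 0.00105 and 0.988 in WT-WD and between 0.764 and 4.17 in WT-ND.

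*Ffar3*, the other short-chain fatty acid receptor, had its lowest mean in WT-ND (0.626, 0.786, 1.05 and 0.600 scaled RPKM). It was 1.04 and 0.785 in KO-ND, 1.06, 1.02, 1.15 and 1.59 in WT-WD, and 1.78, 1.36 and 1.30 in KO-WD. The diet groups overlapped slightly in *Tas1r3*+/+ mice, through 1 ND library, and did not overlap in *Tas1r3*-/- mice. The log2 difference between WD and ND was 0.43 (SE 0.21, adjusted p = 0.346, exact permutation p = 0.0571) in *Tas1r3*+/+ and 0.49 (SE 0.27, adjusted p = 0.925, exact permutation p = 0.1) in *Tas1r3*-/- mice. The interaction, which is the diet difference in *Tas1r3*-/- minus that in *Tas1r3*+/+ mice, was 0.06 (95% interval -0.70 to 0.81). *Ffar2* and *Ffar3* thus had differences of opposite sign in *Tas1r3*+/+ mice, neither of which passed the correction.

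*Ffar4* (GPR120), the long-chain fatty acid receptor, had diet differences of opposite sign in the genotypes, neither of which passed the correction. In WT-ND it was 5.51, 7.62, 10.1 and 6.71 scaled RPKM, and in WT-WD 4.29, 5.46, 4.36 and 6.59; the 3 lowest values were WD libraries, while the highest WD female lay within the ND range. In KO-ND it was 5.41 and 5.01, and in KO-WD 6.13, 8.64 and 7.47, all above the KO-ND libraries. The log2 difference was -0.48 (SE 0.21, 95% interval -0.94 to -0.03, adjusted p = 0.296, exact permutation p = 0.0571) in *Tas1r3*+/+ mice and 0.46 (SE 0.27, 95% interval -0.13 to 1.05, adjusted p = 0.935) in *Tas1r3*-/- mice.

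The interaction for *Ffar4* was 0.94 on the log2 scale (SE 0.34, 95% interval 0.20 to 1.68). Its p was 0.0171 before and 1 after adjustment over all genes in limma, so it did not pass. Between genotypes, *Ffar4* was lower in both KO-ND libraries than in any WT-ND library (log2 difference -0.455, SE 0.26, adjusted p = 0.895), and higher on average in KO-WD than in WT-WD with overlap (0.49, SE 0.23, adjusted p = 1, exact permutation p = 0.0857). The WT-ND libraries enter the diet difference of *Tas1r3*+/+ mice and the genotype difference on the ND, so the low values of these differences are not independent of each other. Within males alone the interaction was 0.82 (adjusted p = 1, limma). Without scaling of the libraries, the diet difference in *Tas1r3*-/- mice was 0.085 and the groups overlapped, while the interaction was 1.00.

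*Ffar4* is also known from adipocytes, and the markers of these cells differed with diet. All 6 adipocyte markers lay below 0 for diet in *Tas1r3*+/+ mice (median log2 difference -2.12, unadjusted p under 0.05 in limma for 4, 0 called). They lay below 0 in *Tas1r3*-/- mice as well (median -0.67), where *Ffar4* was above 0, and all 6 lay above 0 for the interaction (median 1.32). Their sum was 16.6, 150, 156 and 125 scaled RPKM in WT-ND, 61.1 and 117 in KO-ND, 6.58 to 50.02 in WT-WD, and 36.1, 15.5 and 185 in KO-WD. The WT-ND library with the lowest sum, male 1, was also the lowest of its group in *Ffar4*, whereas the KO-WD male with the lowest sum was the highest of its group. The part of adipocyte markers in the level of *Ffar4* was not tested.

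*Ffar1* (GPR40), the other long-chain receptor, did not reach the RPKM needed to be tested with the rest. Its median of 15 reads was above the 10 of *Gpbar1*, which was tested. The transcript of *Ffar1* is longer (4175 bases, against 1075), which lowers its RPKM. *Ffar1* was 0.699, 0.174, 0.389 and 0.451 scaled RPKM in WT-ND, 0.124 and 0.146 in KO-ND, 0.1798, 0.510, 0.244 and 0.377 in WT-WD, and 1.015, 0.176 and 0.432 in KO-WD. The KO-ND libraries were the lowest of all 13 in scaled RPKM, at 6 reads each, but WT-ND male 2 also held 6 reads. Of all genes tested, 22.0% did not overlap between KO-ND and WT-ND, and 20.9% between KO-WD and KO-ND. Groups otherwise overlapped widely, and 1 KO-WD male held the highest value. Its largest log2 difference, 0.63 for diet in *Tas1r3*-/- mice, had an exact permutation p of 0.2 (the smallest possible is 0.1), and an adjusted p of 0.964 when low genes were admitted to the fit.

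*Lpar5*, the lysophosphatidic acid receptor, differed most of the members tested between WT-WD and WT-ND and between KO-ND and WT-ND, in log2 values. It was 10.97, 10.93, 11.6 and 13.96 scaled RPKM in WT-ND, and 4.50, 6.65, 4.37 and 11.5 in WT-WD. The WD female 2 library reached the ND range, while the other 3 were lower. The log2 difference was -0.86 (SE 0.38, 95% interval -1.69 to -0.04, adjusted p = 0.301, exact permutation p = 0.0857). In *Tas1r3*-/- mice *Lpar5* was 6.72 and 5.89 in KO-ND, and 1.67, 4.22 and 8.32 in KO-WD. The KO-WD libraries spanned the KO-ND values on both sides (log2 difference -0.60, 95% interval -1.66 to 0.47). Both KO-ND libraries were below every WT-ND library, at a log2 difference of -0.86 (SE 0.47, adjusted p = 0.895, exact permutation p = 0.0667). With sex as a covariate this difference was -0.57. On the WD the difference was -0.59 (SE 0.41, adjusted p = 1). Without the KO-WD male 1 library, which had the lowest *Lpar5*, the differences were -0.075 for diet in *Tas1r3*-/- mice and -0.069 for genotype on the WD. Without the KO-WD female library they were -1.09 and -1.08.

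Across the 13 libraries, the genes with the pattern most like that of *Lpar5* were *Epcam* (Pearson r = 0.975 of scaled log2 values), *Misp* (0.974) and *Ptprf* (0.973); *Epcam* encodes an adhesion molecule of epithelial cells. Libraries share depth and tissue makeup, so these values are a description. *Epcam* was 1032 to 1495 scaled RPKM in WT-ND, 643 and 705 in KO-ND, 586 to 1275 in WT-WD and 246 to 1178 in KO-WD. While *Lpar5* varied 8.34-fold over the libraries and *Epcam* 6.09-fold, their ratio varied 1.65-fold, from 6.82 to 11.2 for *Lpar5* per 1000 of *Epcam*. The ratio was 8.39 to 11.2 in WT-ND, 9.17 and 9.52 in KO-ND, 7.03 to 9.59 in WT-WD and 6.82 to 7.95 in KO-WD. The ND genotypes, which did not overlap in *Lpar5*, overlapped in this ratio. The diet groups of *Tas1r3*-/- mice, which overlapped in *Lpar5*, did not overlap in it, KO-WD being lower. Of all genes tested, 20.9% did not overlap between these diet groups, and 22.0% between the ND genotypes. *Epcam* was picked for its likeness to *Lpar5* in these same libraries, out of all genes tested. A narrow spread of the ratio was therefore fixed by that choice, and differences of the ratio between groups were not tested. The part of epithelial content in the level of *Lpar5* was not tested. The enterocyte sum ran with *Lpar5* in some libraries and not in others. In KO-WD it was 1135, 3494 and 13802 (males 1 and 2, female), in the order of *Lpar5*. Both KO-ND libraries lay below every WT-ND library in both measures. By contrast, the sum was 8369 in the WT-WD library where *Lpar5* was 4.37 and 7307 in a WT-ND library where it was 10.97.

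*Gpbar1*, the bile acid receptor, had group means of 0.753 to 1.33 scaled RPKM, with SDs within groups of 0.273 to 0.9496. It was 0.613, 0.564, 1.58 and 0.583 scaled RPKM in WT-ND, 0.560 and 0.946 in KO-ND, 1.83, 1.03, 2.27 and 0.195 in WT-WD, and 2.18, 0.761 and 0.375 in KO-WD. The WD groups held the highest and the lowest values of all 13 libraries. The log2 difference for diet was 0.34 (95% interval -0.65 to 1.33, adjusted p = 0.753) in *Tas1r3*+/+ and 0.21 (-1.07 to 1.49) in *Tas1r3*-/- mice. For genotype it was -0.05 on the ND and -0.17 on the WD. At 2 to 24 reads per library, differences of 2-fold in either direction lay inside the interval for diet in *Tas1r3*-/- mice and for genotype on the ND.

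The genes most like *Gpbar1* were *Sncb* (r = 0.975, 13 libraries), which encodes a synuclein of neurons, *Cyth3* (0.97) and *Sprn* (0.97). They were picked for this out of all genes tested in these same libraries, so high r values were fixed by that choice. *Sncb* was itself low, at no more than 3.09 scaled RPKM. All 8 enteric neuron markers were present, and their summed level was 23.7 to 64.4 scaled RPKM in WT-ND, 40.2 and 51.9 in KO-ND, 17.7 to 137 in WT-WD and 22.5 to 109 in KO-WD. The WT-WD female with the lowest *Gpbar1* (0.195) had the lowest neuron sum (17.7), and the WT-WD female with the highest *Gpbar1* (2.27) had the highest (137). Other lists ran alike in these 2 libraries. The enteroendocrine sum was the lowest of all libraries in the former (56.6) and the highest in the latter (253), and the smooth muscle sum was 1023, the lowest, and 4024. The part of these markers in the level of *Gpbar1* was not tested.

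**Figure D3:**
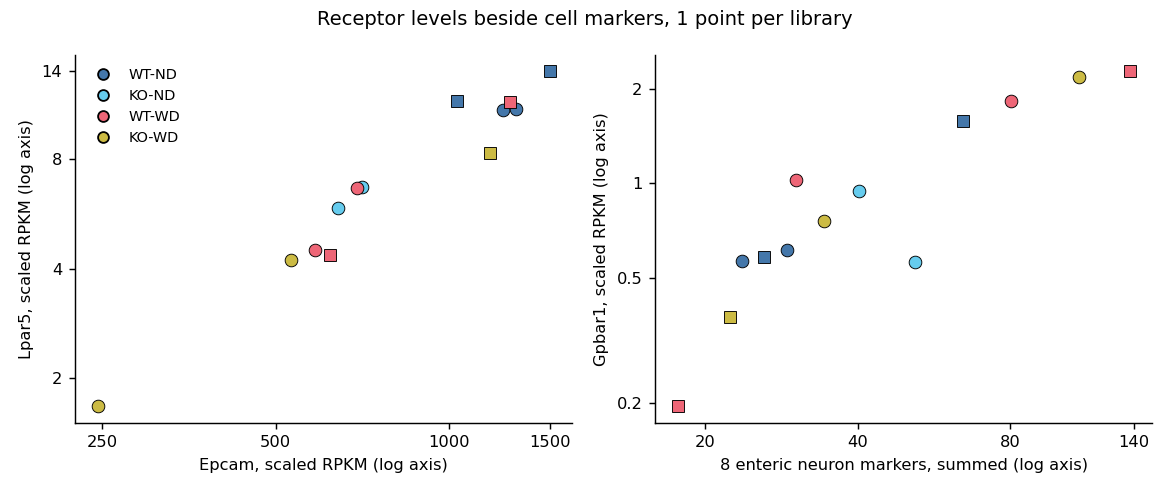
On the left, *Lpar5* (y axis) against *Epcam* (x axis), and on the right, *Gpbar1* (y axis) against the summed level of 8 enteric neuron markers (x axis), all in scaled RPKM on log axes. Each point is 1 library, coloured by group, circles for males and squares for females, and both plots run from the lower left to the upper right across the groups.

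*Gpr119*, the lipid amide receptor, had the fewest reads of the members measured. It was 0.332, 0.0535, 0.0977 and 0.0921 scaled RPKM in WT-ND, at 0 and 0.0448 in KO-ND, 0.0414, 0.417, 0.0897 and 0.185 in WT-WD, and 0.0491, 0.252 and 0.0263 in KO-WD. The highest library held 12 reads. The listed 0 allows up to 3 reads, a limit for counting error only. The exact permutation p values of the 4 comparisons lay between 0.267 and 0.743.

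**Figure D4:**
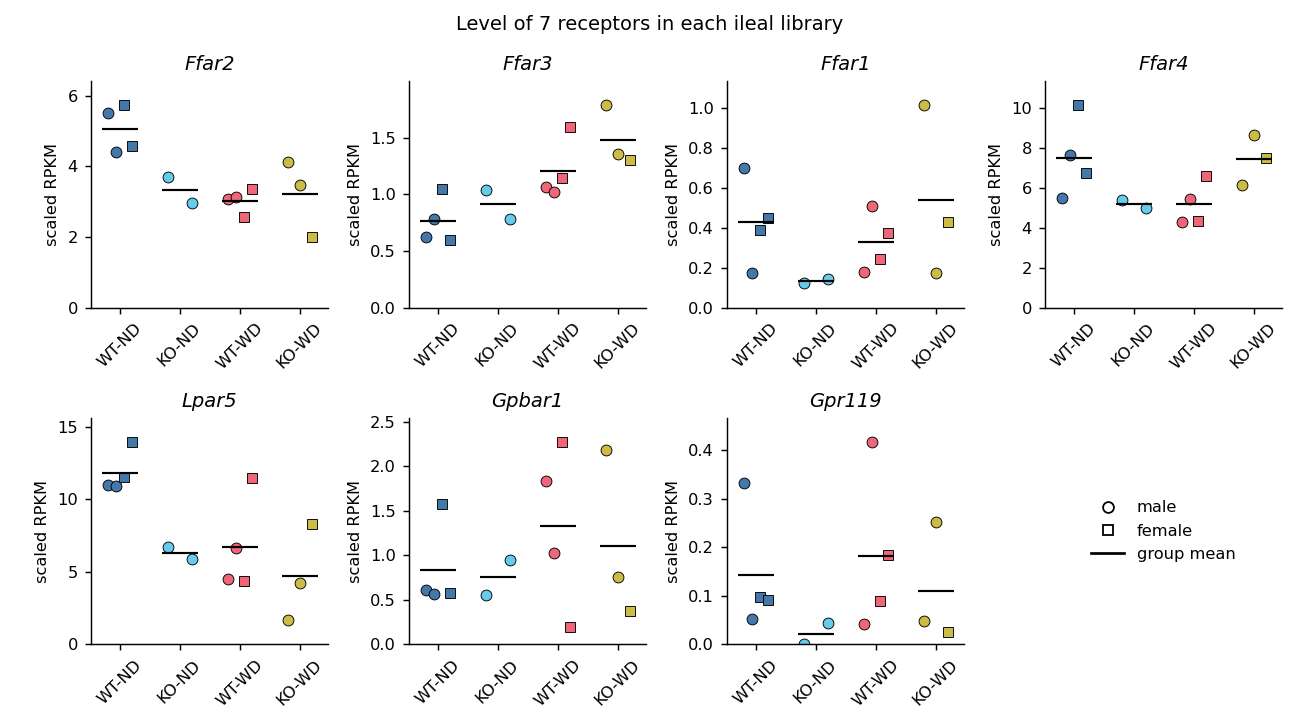
Scaled RPKM (y axes, starting at 0 and different for each receptor) of 7 receptors in the libraries of the 4 groups (x axes), circles for males, squares for females, horizontal lines for group means. *Ffar2* in WT-ND lies above all WT-WD libraries, and *Lpar5* in WT-ND lies above both KO-ND libraries.

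Set beside all genes, the 5 members tested had 0 calls in each comparison. Of 19042 genes tested, 1 was called for diet in *Tas1r3*+/+ mice (0.00525%), 2 for genotype on the WD (0.0105%), and 0 (0%) for diet in *Tas1r3*-/- mice, for genotype on the ND and for the interaction, so that calls were rare throughout. Without correction, p was under 0.05 for 2959 genes (15.5%) for diet in *Tas1r3*+/+ mice, where *Ffar2*, *Ffar4* and *Lpar5* (3 of 5 members) were among them. It was under 0.05 for 1046 genes (5.49%) for diet in *Tas1r3*-/- mice, 900 (4.73%) for genotype on the ND and 504 (2.65%) for genotype on the WD, in each case with 0 of the 5 members. For the interaction it was so for 272 genes (1.43%), *Ffar4* among them.

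Libraries of the groups did not overlap for 1 of 5 members (*Ffar2*) for diet in *Tas1r3*+/+ mice, against 10.5% of all genes tested. For diet in *Tas1r3*-/- mice this held for 2 (*Ffar3* and *Ffar4*, both higher on the WD), against 20.9%. For genotype on the ND it held for 3 (*Ffar2*, *Ffar4* and *Lpar5*, all lower in KO-ND), against 22.0%, and on the WD for 0, against 2.84%. The median log2 difference of the 5 members was -0.48 for diet in *Tas1r3*+/+ mice, 0.21 for diet in *Tas1r3*-/- mice, -0.455 for genotype on the ND and 0.03 for genotype on the WD. That of all genes lay between -0.02 and 0.02.

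**Figure D5:**
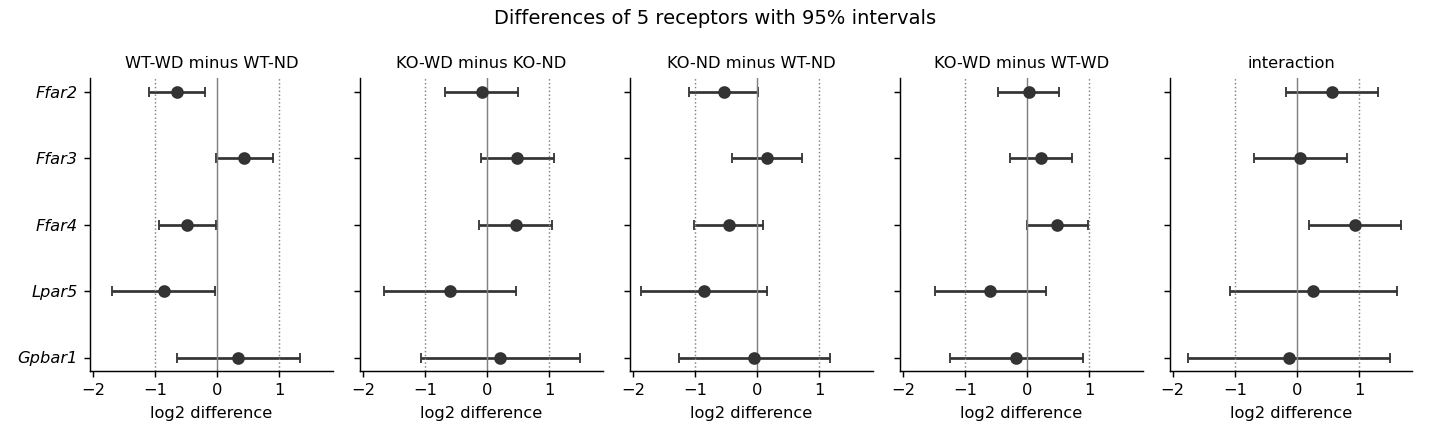
Log2 differences (x axis, points) with 95% intervals (bars) for the 5 receptors tested (y axis) in 4 comparisons and the interaction; the solid line marks 0 and the dotted lines 2-fold. For WT-WD against WT-ND, the intervals of *Ffar2*, *Ffar4* and *Lpar5* lie below 0, and for the interaction that of *Ffar4* lies above 0 (0.20 to 1.68).

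The genes around these receptors were read from 8 lists with 91 genes, of which 77 were tested. For genotype on the WD 1 of them was called, *Tas1r3* itself; in the other comparisons 0 were called. Unadjusted p was under 0.05 for 9 of the 77 for diet in *Tas1r3*+/+ mice, 2 for diet in *Tas1r3*-/- mice, 2 for genotype on the ND, 5 for genotype on the WD and 2 for the interaction. These shares can be read against the percentages of all genes above.

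Among hormones of enteroendocrine cells, 0 of 12 tested were called. For diet in *Tas1r3*+/+ mice the largest log2 difference was that of *Gcg*, which encodes the precursor of GLP-1 (1.04, SE 0.32, adjusted p = 0.168, limma), followed by *Gal* (0.99, SE 0.67). *Gcg* was 16.2 to 41.3 scaled RPKM in WT-ND, 33.3 to 97.8 in WT-WD, 28.8 and 29.7 in KO-ND, and 20.2 to 25.2 in KO-WD. On the WD the *Tas1r3*-/- libraries were all below the *Tas1r3*+/+ libraries, with a log2 difference of -1.25 (SE 0.35, adjusted p = 1, limma). *Cck* was the largest for diet in *Tas1r3*-/- mice (1.37, SE 0.46, adjusted p = 0.858, limma), from 2.17 and 4.66 in KO-ND to 6.07 to 16.4 in KO-WD. The median of the 12 hormones was 0.54 for diet in *Tas1r3*+/+ and 0.53 in *Tas1r3*-/- mice, while the 5 receptors had medians of -0.48 and 0.21.

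Of 9 genes of ileal bile acid handling, 0 were called. On the WD 9 of 9 lay below 0 for genotype (median -0.39) and on the ND 8 of 9 (median -0.50). The largest on the ND were *Fgf15*, the ileal hormone induced by bile acids (-2.69, SE 1.76), and *Slc10a2*, the bile acid uptake transporter (-1.06, SE 0.68). *Fgf15* was 0 to 36.4 scaled RPKM within WT-ND alone. On the WD *Abcc2* (-0.92, SE 0.61) and *Fabp6* (-0.69, SE 0.69) were the largest. Of the 8 enterocyte markers 7 were tested, and these 7 also lay below 0 for genotype on the ND (median -1.19) and on the WD (median -1.06, unadjusted p under 0.05 in limma for 2, 0 called). Their part was not tested.

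Of 7 genes of fatty acid uptake and binding, 0 were called and 6 lay below 0 for genotype on each diet. *Fabp2*, the intestinal fatty acid binding protein, was the largest on the WD (-2.29, SE 0.69, adjusted p = 1, limma), at 1104 to 4717 scaled RPKM in WT-WD and 120 to 833 in KO-WD. *Fabp1* followed (-1.63, SE 0.76). These differences had the sign of those of the enterocyte markers, whose part was not tested. Of 5 genes for transport of short-chain fatty acids, 0 were called; *Slc5a8* had the largest difference on the ND (-1.17, SE 0.64, adjusted p = 0.895, limma), at 21.5 to 34.4 in WT-ND and 7.23 and 16.2 in KO-ND.

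Of 4 other lysophosphatidic acid receptors tested, 0 were called. *Lpar6* was higher on the WD in *Tas1r3*+/+ mice by 0.62 (SE 0.25, adjusted p = 0.257, limma), opposite in sign to *Lpar5*, and *Lpar3* differed by -0.22 (SE 0.44). Of 16 further metabolite receptors, 7 passed the filter and 0 were called; *P2ry14* (0.82, SE 0.43) and *Gpr35* (-0.55, SE 0.30) were largest for diet in *Tas1r3*+/+ mice. Of 32 G protein subunits and effectors tested, 0 were called in any comparison, with medians between -0.01 and 0.12. For diet in *Tas1r3*+/+ mice *Gnai1* (0.94, SE 0.46), which encodes an inhibitory alpha subunit, and *Arrb2* (0.83, SE 0.34), which encodes a beta-arrestin, were the largest.

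The remaining likeness values are given as a description over the same 13 libraries. *Ffar4* was most like *Cd38* (r = 0.863), *Chst4* (0.853) and *Alpk1* (0.842), *Ffar3* most like *Rab26os* (0.893), *Acyp2* (0.862) and *Fhl2* (0.862), and *Ffar2* most like *Gm18827* (0.86), *Mrpl39* (0.826) and *Tirap* (0.822). *Ffar2* is also known from leukocytes, whose markers differed in level. Of 8 neutrophil markers 3 had transcripts in the table, and their sum was 6.38 to 9.17 scaled RPKM in WT-ND, 3.62 and 5.00 in KO-ND, 3.48 to 5.52 in WT-WD and 1.68 to 3.78 in KO-WD; *S100a9* was at 0 in at least 1 library. This sum was higher in every WT-ND library than in any other library. Of the 2 neutrophil markers tested, 1 lay above 0 and 1 below 0 for diet in *Tas1r3*+/+ mice. For genotype on the ND 2 lay below 0 (median -0.50), and 0 were called in either comparison. The part of neutrophil markers in the level of *Ffar2* was not tested. The 8 macrophage markers summed to 82.1 to 234 over all libraries, with 114 to 208 in WT-ND and 123 to 234 in WT-WD. For diet in *Tas1r3*+/+ mice 7 of 8 macrophage markers and 7 of 7 T cell markers lay above 0 (medians 0.28 and 0.37, unadjusted p under 0.05 in limma for 2 and 3, 0 called), while *Ffar2* lay below 0. The T cell sum was 7.47 to 24.9 in WT-ND and 16.7 to 54.8 in WT-WD.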

How the data were processed

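The authors prepared ileal RNA for Ion Proton sequencing; their methods name STAR 2.5.3a, run within Partek Flow on GRCm38 (mm10), and Ensembl release 91. The deposited values are RPKM per transcript. Of 59258 transcripts, 98.2% matched GENCODE M21 (same build). The KO-ND female columns equal weighted means of the KO-ND male columns in all but 17 and 18 transcripts and were left out. The KO-WD female columns are related to each other and were averaged. RPKM summed to 817011 to 819916 in ND and 542371 to 685274 in WD libraries, so each library was rescaled by the mean log ratio of its genes to a reference, after trims of 30% (ratios) and 5% (levels). The implied depth was 7003818 to 12384365 reads, where 86.5% to 87.8% of the values examined were whole reads (tolerance 0.02). For 19042 genes, log2 (scaled RPKM plus 0.5) of all 4 groups entered 1 linear model in limma 3.58.1 (R 4.3.3, mean-variance trend). Fold changes understate those of low genes. P-values were adjusted by Benjamini-Hochberg over all genes, and calls needed 0.01 and 2-fold. Single members had exact two-sided permutation tests. Members and lists were chosen with earlier results of these data known. Named from related lists are the genes called in a comparison or, where none was, up to 2 with the largest differences; 3 genes of highest Pearson correlation are named per member tested. There were 29 other settings.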

Additional observations from a re-analysis of the deposited data

Results flagged for a closer look

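*Gpbar1* in WT-ND held a library far from the others. The female 1 library was at 1.58 scaled RPKM and the other 3 at 0.564 to 0.613, so that the gap made up 0.933 of the range on the log2 scale with the pseudocount, above Dixon's 95% critical value for 4 samples. Of 14 groups of 4 libraries examined this was the only 1, where chance alone flags about 5% of groups. The same library had the highest enteric neuron sum of its group (64.4, against 23.7 to 29.0). It also had the highest sums of its group for smooth muscle (3316, against 1107 to 1648), B cells (65.6, against 5.34 to 12.7), macrophages (208, against 114 to 151), T cells (24.9, against 7.47 to 22.4) and enteroendocrine cells (105, against 80.6 to 102). The part of these markers was not tested.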

How the results depend on the processing

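No member was called in any of the 29 other settings, 13 of which left out 1 library each (0 members throughout). The differences named in the report for *Ffar2*, *Ffar4* and *Lpar5* between WT-WD and WT-ND, those between KO-ND and WT-ND, and the *Ffar4* interaction kept their sign in every setting; without 1 library at a time the *Ffar4* interaction was 0.78 to 1.07. Without scaling, the median of all genes moved to -0.38 (diet, *Tas1r3*+/+), -0.35 (diet, *Tas1r3*-/-), -0.14 and -0.12 (genotype on the ND and the WD). Diet differences of *Ffar2*, *Ffar4* and *Lpar5* in *Tas1r3*+/+ mice were then -1.06, -0.91 and -1.30, with adjusted p values in limma of 0.0126, 0.0211 and 0.0211; over all settings these p values reached 0.357, 0.550 and 0.555. In *Tas1r3*-/- mice the unscaled diet differences were -0.43 for *Ffar2*, 0.085 for *Ffar4* and -0.96 for *Lpar5*, and for *Ffar3* they were 0.12 in *Tas1r3*+/+ and 0.21 in *Tas1r3*-/- mice. Among differences near 0, signs turned for *Ffar2* (KO-WD against WT-WD) without scaling (-0.066), with sex as a covariate (-0.004) and with all 16 columns (-0.082), for *Ffar2* (KO-WD against KO-ND) in males (0.17) and for the most abundant transcript (0.059), for *Gpbar1* without scaling (-0.036, KO-WD against KO-ND) and in males (0.21, KO-ND against WT-ND), and for *Lpar5* in males (-0.16, interaction). The cause was not tested. Without 1 library at a time, *Gpbar1* ranged from -0.27 to 0.20 (KO-ND against WT-ND), -0.24 to 0.57 (KO-WD against KO-ND), -0.63 to 0.18 (KO-WD against WT-WD) and -0.58 to 0.23 (interaction), *Ffar2* from -0.27 to 0.17 (KO-WD against KO-ND) and -0.16 to 0.29 (KO-WD against WT-WD), and the interaction of *Ffar3* from -0.073 to 0.185 and of *Lpar5* from -0.22 to 0.79; *Lpar5* ranged from -1.09 to -0.075 (KO-WD against KO-ND) and -1.08 to -0.069 (KO-WD against WT-WD).

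By the rule that every pair correlates above 0.1, the labels' replicate numbers did not pair WT-WD with WT-ND (r = -0.009, 0.283, 0.472 and 0.296). For KO-WD with WT-WD, r was 0.568 and 0.417 in the males. The KO-WD female, an average of 2 columns, has no number of its own and was counted as female 1. Its r was -0.144 with WT-WD female 1 and 0.634 with WT-WD female 2. For KO-WD with KO-ND, r was -0.15 and 0.086, and for KO-ND with WT-ND 0.024 and 0.056. KO-ND holds 2 libraries, whose deviations from their mean mirror each other, so these last values cannot settle whether the numbers pair. With the replicate block, *Ffar2* in KO-WD against KO-ND was 0.005, the *Ffar4* interaction was 0.89 and 0 members were called, while 3 genes rather than 1 were called over all genes for diet in *Tas1r3*+/+ mice. Over all genes, calls for that comparison ranged from 0 (males only) to 539 (no scaling), for diet in *Tas1r3*-/- mice from 0 to 16 (all 16 columns), for genotype on the ND from 0 to 1 and on the WD from 0 to 6. With a pseudocount of 0.1, *Ffar1* moved to 1.22 (KO-WD against KO-ND) and -1.07 (KO-ND against WT-ND), and *Gpr119* to 0.64 and -0.90. At about 10 reads or fewer, as for *Gpbar1* and *Gpr119*, depth limits what can be told.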
